A study of Mus musculus with 4 samples.

Results

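The mouse genes whose symbols begin with Zfp and a digit, most of which encode zinc finger proteins, were described in 4 mRNA libraries of bone marrow macrophages. The files named 389 such genes among 24235, and 180 of them reached 2 FPKM (fragments per kilobase, scaled to depth, a level that can be compared between genes) in at least 1 library. These 180 genes are described here, against 9787 genes of all kinds that passed the same minimum. Zfp36, Zfp36l1 and Zfp36l2, which encode mRNA decay factors with another type of finger, were left out. The members were thus selected on their FPKM in these libraries, so a gene that passed in only 1 group had to be lower elsewhere. Of the 180 genes 109 were at 2 FPKM or more in all 4 libraries, 30 only in both libraries without LPS, 14 only in the library labelled Sema6D-/- without LPS, 5 only in both with LPS and 5 only in the Sema6D-/- library with LPS. The highest FPKM was 2.04 for Zfp677, 2.07 for Zfp58 and 2.06 for Zfp141, just inside the minimum, and 1.99 for Zfp189, 1.97 for Zfp810 and 1.96 for Zfp27, just outside it.

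All 4 groups were macrophages grown with M-CSF from the marrow of C57BL/6 mice aged 7 weeks. Wild type (WT) cells were left without LPS or given 100 ng/ml LPS (lipopolysaccharide, a bacterial cell wall component) for 4 h, and Sema6D-/- cells were treated in the same 2 ways. Sema6D is a membrane-bound semaphorin, and the labels give neither the deleted part of the gene nor the number of mice behind a library. With 1 library a group there were no replicates, so no test was run and every difference compares libraries, not conditions.

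Genes at 1 FPKM or more numbered 9682 to 10057 per library. Sema6d itself measured 0.304 and 0.219 FPKM in WT, with 0.563 and 0.592 in the libraries labelled Sema6D-/-. It was not lower there, and these 2 libraries are called KO-labelled from here on. Xist, made in female cells, measured 22.3 and 21.4 FPKM in WT against 0.0333 and 0.0306, and the Y-linked Eif2s3y at most 0.0207 in WT against 33.5 and 50.4. All 8 macrophage markers were at 2 FPKM or more, with summed levels of 17408 to 24744 FPKM. Of 8 neutrophil and progenitor markers 7 passed that level, and their sum was 562 and 858 FPKM in WT against 156 and 251 in the KO-labelled libraries, with Ly6g at 0.450 or less throughout. Markers of lymphocytes summed to at most 0.492 FPKM, of mast cells to 1.08, of erythroid cells to 0.196, of stromal cells to 4.51 and of dendritic cells to 8.30.

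Zinc fingers of the C2H2 type are small folds around a zinc ion that read a few DNA bases each, and proteins of this family carry them in rows. Many of the mouse genes also encode a KRAB box, a stretch near the start of the protein that recruits the corepressor Trim28 and with it the histone methyltransferase Setdb1. Such KRAB zinc finger proteins are best known for silencing transposable elements, and their genes lie in clusters that arose by duplication. Members without a KRAB box have other roles, from transcription to RNA and ribosome control. LPS acts on macrophages through TLR4 and switches on NF-kB and interferon programmes.

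The Zfp genes were expressed at low levels. Their median was 4.02 FPKM in WT without LPS, 3.10 in WT with LPS, 4.21 in the KO-labelled library without LPS and 3.24 with LPS. Over the 9787 genes it was 10.9, 11.2, 11.2 and 11.4 FPKM. Between 20 and 26 members per library reached 10 FPKM, and 121 to 167 reached 2 FPKM. The highest mean belonged to Zfp207, which loads Bub3 onto kinetochores, at 105 and 123 FPKM without and with LPS in WT and 85.3 and 126 in the KO-labelled libraries. Next to it, Zfp710 measured 63.1, 66.8, 71.2 and 63.1 FPKM, within a narrow range. The summed FPKM of the Zfp genes of each library was 1160.1, 1132.5, 1179.8 and 1248.5 in the same order. Zfp384, Zfp414 and Zfp513 were also among the 12 members with the highest mean. Zfp384 measured 22.5, 21.5, 19.1 and 19.5 FPKM, Zfp414 17.3, 14.9, 17.5 and 13.3, and Zfp513 16.7, 29.4, 15.8 and 39.5. Of the 3, Zfp513 alone had both LPS libraries above both unstimulated ones.

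With LPS most members were lower by less than 2-fold, and a small set passed 2-fold in each direction. Ratios below are log2((FPKM + 1)/(FPKM + 1)), which understates the ratio of low genes. Where square brackets follow a log2 ratio, it was formed without the added 1, and they give 95% limits that cover counting error only. In WT 10 of the 180 members (5.56%) passed 2-fold upwards with LPS and 10 (5.56%) downwards, against 11.2% higher and 5.01% lower over all genes. The split was 7 higher and 17 lower after centring on the median of well expressed genes, and 3 and 37 after rescaling each library to a common FPKM total, which moved the median of all genes by -0.47. The deposited FPKM totals ran from 370066 to 628278, with the 2 LPS libraries the highest. In the KO-labelled libraries 13 members (7.22%) were higher and 20 (11.1%) lower, against 14.5% and 8.95% over all genes. This split became 10 and 30 after centring, and 4 and 83 after rescaling, which moved all genes by -0.67 there. After rescaling the median of all genes itself was -0.45 in WT and -0.64 in the KO-labelled libraries. The shares over all genes belong to the deposited scaling, and none stands beside the counts after centring or rescaling.

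Ratios were below 0 for 139 of 180 members in WT and 136 in the KO-labelled libraries (77.2% and 75.6%). Over all genes these shares were 48.5% and 47.8%. Among the 98 members with a highest level of 2 to 5 FPKM they were 87.8% and 85.7%, against 70.2% and 69.3% of all such genes. Among the 109 members at 2 FPKM in every library they were 71.6% and 70.6%. The 30 members at 2 FPKM only in both libraries without LPS had to be below 0. The median log2 ratio of the 180 members was -0.35 (quartiles -0.57 and -0.05) in WT and -0.39 (quartiles -0.69 and -0.02) in the other genotype. It was 0.02 and 0.03 over all genes. Low genes of any kind had lower ratios too. Among the 98 members whose highest level was 2 to 5 FPKM the medians were -0.42 and -0.50, and among all 1764 genes in that range -0.23 and -0.31. For the 82 members at 5 FPKM or more they were -0.20 and -0.17, against 0.08 and 0.10 over 8023 genes. Among the 109 members at 2 FPKM in every library they were -0.21 and -0.26, with 6 higher and 6 lower in WT and 7 and 6 in the other genotype. These counts have no share of all genes under the same stricter minimum beside them. No median turned positive under another scaling. In these bulk samples, fewer cells of a type and less RNA per cell cannot be told apart.

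At the size rule, 8 of 180 members had higher LPS levels in both genotypes, against 990 of all 9787 genes, which is a larger share. Zfp800 led the 8 members. It measured 7.63 FPKM in WT without LPS and 73 with LPS, and 8.40 and 131 in the KO-labelled libraries. Both LPS libraries lay far above both unstimulated ones, with log2 ratios of 3.26 [3.16, 3.36] and 3.96 [3.86, 4.07]. In the last library Zfp800 had a higher FPKM than any other member.

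Zfp319 followed, with 6.33 and 22.9 FPKM in WT against 6.77 and 24.4 in the KO-labelled libraries (1.86 [1.76, 1.95] and 1.85 [1.75, 1.95]). Its values differed little by genotype in either state. Zfp281, a transcription factor known from pluripotent cells, measured 11.1 and 29.9 FPKM in WT, with 9.18 and 34.7 in the other genotype (1.43 [1.34, 1.52] and 1.92 [1.81, 2.02]). Those 3 genes were at 2 FPKM or more in every library, as was Zfp777, and none of the 3 had a KRAB box.

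The other 5, all with a KRAB box, were low without LPS. Zfp811 measured 1.24, 4.81, 1.47 and 5.01 FPKM in the order WT without and with LPS, then KO-labelled without and with LPS, which is kept below. Zfp382 measured 1.45, 4.89, 1.57 and 5.44 FPKM, and Zfp324 1.46, 4.57, 2.13 and 9.19. Zfp777 measured 2.85, 7.00, 3.60 and 11.4 FPKM. Zfp456, whose near copy Zfp455 may share its reads, measured 0.859, 2.74, 1.21 and 4.34 FPKM. In each of the 5 both LPS libraries lay above both unstimulated ones. For Zfp382, Zfp456 and Zfp811 the member minimum fixed this order, since they reached 2 FPKM only with LPS. The log2 ratios of the 5 were between 1.01 and 1.37 in WT and between 1.27 and 1.70 in the other genotype. After centring on the median 6 of the 8 still passed 2-fold in both genotypes, without Zfp456 and Zfp777. After rescaling to a common total 2 did, Zfp319 and Zfp800.

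The plot of levels by library shows these genes with the 7 that were lower in both genotypes.

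**Figure D1:**
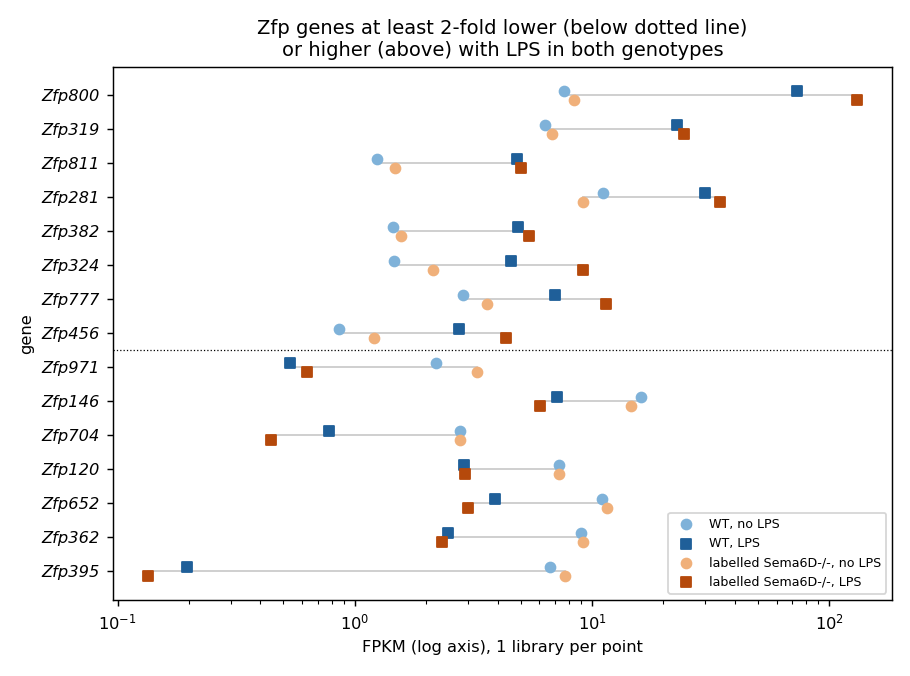
FPKM on a log axis for each library (points, 1 library each; circles without LPS, squares with LPS; blue WT, orange KO-labelled) of the 8 Zfp genes that passed 2-fold upwards with LPS in both genotypes and the 7 that passed downwards, with a grey line from the lowest to the highest value. Zfp800 reaches 73 and 131 FPKM with LPS, and Zfp395 lies at 0.196 and 0.134.

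The bases before the start sites of Zfp800, Zfp319 and Zfp281 are shown because these 3 members had the highest LPS levels of the 8 genes. Sequences are RefSeq promoters on GRCm38.p6, a later build than the mm9 of the deposited values, each 250 bases before the start and 5′ to 3′ on the gene's strand. Capitals mark matches, on either strand, to GGG and CC with 5 free bases between them, a loose form of the kappa-B site to which NF-kB binds. The table gives 2 starts for Zfp800, and the deposited values do not say which was used. They lie at chr6:28398006-28398255 and chr6:28261925-28262174, both on the minus strand. The windows of Zfp319 (chr8:95331812-95332061, minus strand) and Zfp281 (chr1:136624651-136624900, plus strand) each stand for 1 start.
Zfp800 start 1: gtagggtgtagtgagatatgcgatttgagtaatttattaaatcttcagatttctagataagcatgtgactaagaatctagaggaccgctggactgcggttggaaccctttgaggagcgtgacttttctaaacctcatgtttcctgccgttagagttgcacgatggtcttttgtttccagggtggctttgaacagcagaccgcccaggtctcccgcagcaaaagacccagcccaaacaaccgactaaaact
Zfp800 start 2: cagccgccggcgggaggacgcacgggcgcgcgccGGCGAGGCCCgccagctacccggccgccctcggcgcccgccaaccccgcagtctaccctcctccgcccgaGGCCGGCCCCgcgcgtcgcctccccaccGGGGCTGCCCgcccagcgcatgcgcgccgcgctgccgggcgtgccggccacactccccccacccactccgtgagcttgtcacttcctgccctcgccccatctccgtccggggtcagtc
Zfp319: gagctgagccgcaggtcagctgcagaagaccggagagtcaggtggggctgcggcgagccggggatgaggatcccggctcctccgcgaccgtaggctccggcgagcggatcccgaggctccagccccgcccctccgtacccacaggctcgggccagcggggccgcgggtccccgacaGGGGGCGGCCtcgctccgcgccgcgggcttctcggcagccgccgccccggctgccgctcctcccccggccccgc
Zfp281: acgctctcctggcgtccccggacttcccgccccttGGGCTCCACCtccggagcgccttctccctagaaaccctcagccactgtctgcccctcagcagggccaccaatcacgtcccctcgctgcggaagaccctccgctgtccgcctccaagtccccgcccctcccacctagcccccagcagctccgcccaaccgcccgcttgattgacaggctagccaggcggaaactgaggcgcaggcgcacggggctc
The first Zfp800 window held 0 matches, 9 CpG and 46.4% G or C. The second held 3 matches, 38 CpG and 80.0% G or C, and the Zfp319 and Zfp281 windows 1 match each.

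The loose motif is common. It was found in the window of 7 of the 8 members higher with LPS in both genotypes and of 1 of the 4 lower ones with a window in the table. Among all members it was found in 63.8% of 149, among genes at 2 FPKM in 67.0% and among all 27025 genes in 48.7%. A stricter form, GGG, 2 free bases and TTTCC, was in 2.01% of members and 1.65% of all genes. An interferon response element, GAAA on both sides of 2 free bases, was in 1.34% of members and 3.46% of all genes. These matches describe letters in the window and are not evidence of binding.

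In the other direction, 7 of 180 members passed 2-fold in both genotypes, against 400 of all 9787 genes, a similar share. Zfp395, known as a protein that binds papillomavirus and Huntington gene regulatory regions, measured 6.63 and 0.196 FPKM in WT against 7.70 and 0.134 in the KO-labelled libraries. An estimated 16 and 9 fragments were counted with LPS, against 817 and 687 without, which gave log2 ratios of -5.08 [-5.88, -4.36] and -5.84 [-6.96, -4.89]. It was the lowest ratio of all 180 members in both genotypes, and the 2 unstimulated libraries lay far above the others.

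Zfp362 measured 8.96 and 2.47 FPKM in WT, with 9.12 and 2.33 in the other genotype (-1.86 [-2.14, -1.58] and -1.97 [-2.30, -1.66]). Zfp652, a repressor that works with the corepressor Cbfa2t3, measured 11 and 3.9 FPKM in WT against 11.5 and 3.0 in the other genotype (-1.5 [-1.73, -1.27] and -1.94 [-2.23, -1.66]). Zfp146, a small protein made almost only of fingers, measured 16.1 and 7.12 FPKM in WT, with 14.7 and 6.02 in the other genotype (-1.18 [-1.38, -0.98] and -1.28 [-1.53, -1.04]). None of these 3 carried a KRAB box. Between the genotypes Zfp652 was lower with LPS in the KO-labelled library (-0.38 [-0.71, -0.04]).

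Zfp120, with a KRAB box, measured 7.26 and 2.89 FPKM in WT against 7.23 and 2.92 in the KO-labelled libraries. Zfp704 measured 2.77 and 0.779 FPKM in WT, with 2.78 and 0.445 in the other genotype. Zfp971, with a KRAB box, measured 2.2 and 0.535 FPKM in WT against 3.27 and 0.631 in the other genotype, on 13 fragments in each LPS library. In all 7 the LPS libraries lay below both unstimulated ones. For Zfp395, Zfp704 and Zfp971 the member minimum fixed this order, since they reached 2 FPKM only without LPS. The 7 passed 2-fold in both genotypes under each of the 3 other scalings tried.

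Other members passed 2-fold in only 1 genotype, and all of them lay on the same side of 0 in the other. Zfp429 (1.17 in WT and 0.98 in the KO-labelled libraries) and Zfp821 (1.01 and 0.99) were higher by the rule in WT only. Zfp212, Zfp513, Zfp658, Zfp691 and Zfp945 passed in the other genotype only, with WT ratios of 0.44, 0.78, 0.74, 0.96 and 0.78. Among the lower members 3 passed in WT only. They were Zfp275 (-1.04 and -0.90), Zfp809 (-1.15 and -0.95), which silences murine leukaemia virus through its primer binding site, and Zfp703 (-1.07 and -0.70), a corepressor known from breast cancer. Zfp809 measured 7.85, 3.0, 7.15 and 3.21 FPKM, and Zfp703 18.8, 8.44, 12.6 and 7.40. Another 13 passed in the KO-labelled libraries only. Their WT ratios ran from -0.98 for Zfp251 to -0.57 for Zfp707, and Zfp740, the most expressed of them, measured 12.7, 6.00, 16.7 and 5.89 FPKM. Of all 9787 genes 111 passed upwards in WT only and 430 in the KO-labelled libraries only, and 90 and 476 downwards. Zfp658 and Zfp945 reached 2 FPKM only in the KO-labelled library with LPS, and Zfp41, Zfp61 and Zfp707 only in the one without. For these genes the minimum favoured passing in that genotype, while Zfp944 of the 13 reached it only in WT without LPS. Zfp251, Zfp266, Zfp282, Zfp369, Zfp512b and Zfp764 of the 13, and also Zfp275, reached 2 FPKM only without LPS. The minimum thus fixed their lower direction with LPS in both genotypes. Zfp52 missed it only in the KO-labelled library with LPS, which fixed its direction in that genotype.

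Across the 180 members the LPS ratios of the genotypes, which share no library, had a Pearson's r of 0.95 and a Spearman's rho of 0.89. Over all 9787 genes these were 0.77 and 0.90. Genes of 1 library are not independent replicates, and these values are a description. No member was 2-fold higher in one genotype and 2-fold lower in the other, and 167 of 180 had the same sign. Of all 9787 genes only 11 were opposite in this way, and 8492 had the same sign. The scatter of the responses shows the spread.

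**Figure D2:**
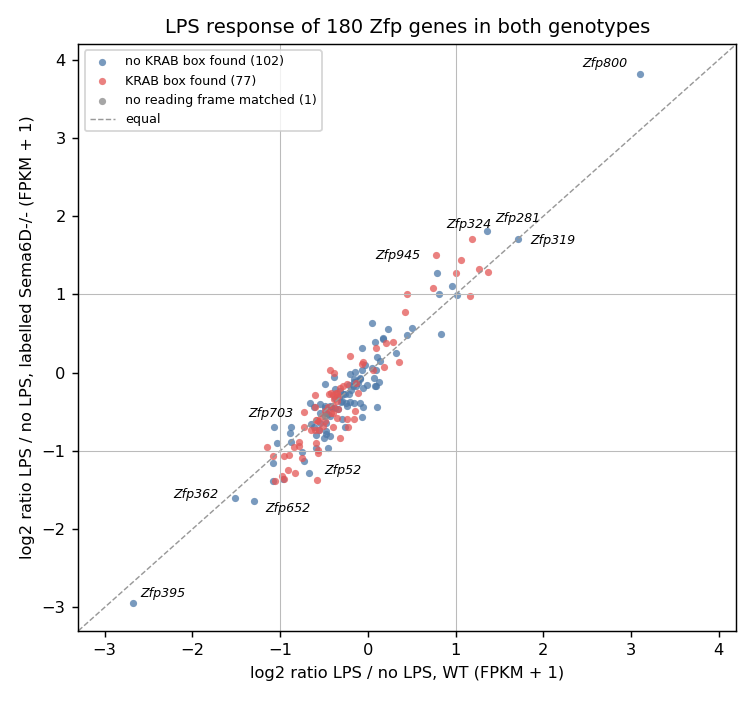
Log2 ratio of LPS to no LPS (FPKM + 1) in WT (horizontal) and in the KO-labelled libraries (vertical), 1 point per Zfp gene, red with a KRAB box, blue without, grey with no reading frame matched. The dashed line marks equal ratios and the thin lines 2-fold. Zfp800 (3.10 and 3.81) and Zfp395 (-2.67 and -2.94) lie at the ends of a band along the line.

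A KRAB box was found in the reading frames of 77 members, was not found in 102, and Zfp267 matched no reading frame. The box was scored over 16 positions with 11 required, and the 2 classes scored 11 to 15 and 3 to 8. KRAB members carried a median of 11 C2H2 fingers and the others 7. In 4 members without a KRAB box, Zfp330, Zfp503, Zfp703 and Zfp839, no finger of the C2H2 spacing was matched. KRAB members had lower levels, with a median of the mean over the 4 libraries of 2.46 FPKM against 5.81, and the highest was Zfp445, which maintains genomic imprints, at 11.6, 8.60, 11.5 and 8.29 FPKM.

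The LPS ratios of the classes overlapped widely. The medians were -0.40 in WT and -0.46 in the KO-labelled libraries for KRAB members, and -0.26 and -0.36 for the others. Of the 77 KRAB members 6 were 2-fold higher and 3 lower in WT, and 8 higher and 11 lower in the other genotype. Of the 102 others 4 were higher and 7 lower in WT, and 5 and 9 in the other genotype. As shares these were 7.79% higher and 3.9% lower of KRAB members in WT, and 10.4% and 14.3% in the other genotype. For the others they were 3.92% and 6.86% in WT, and 4.90% and 8.82% in the other genotype. Over all genes they were 11.2% and 5.01%, then 14.5% and 8.95%. By number of fingers the WT medians were -0.29 for 0 to 3, -0.31 for 4 to 7, -0.34 for 8 to 12 and -0.36 for 13 or more fingers. In the KO-labelled libraries they were -0.39, -0.38, -0.43 and -0.30, in another order. The plot of both classes shows how little they part in response compared with level.

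**Figure D3:**
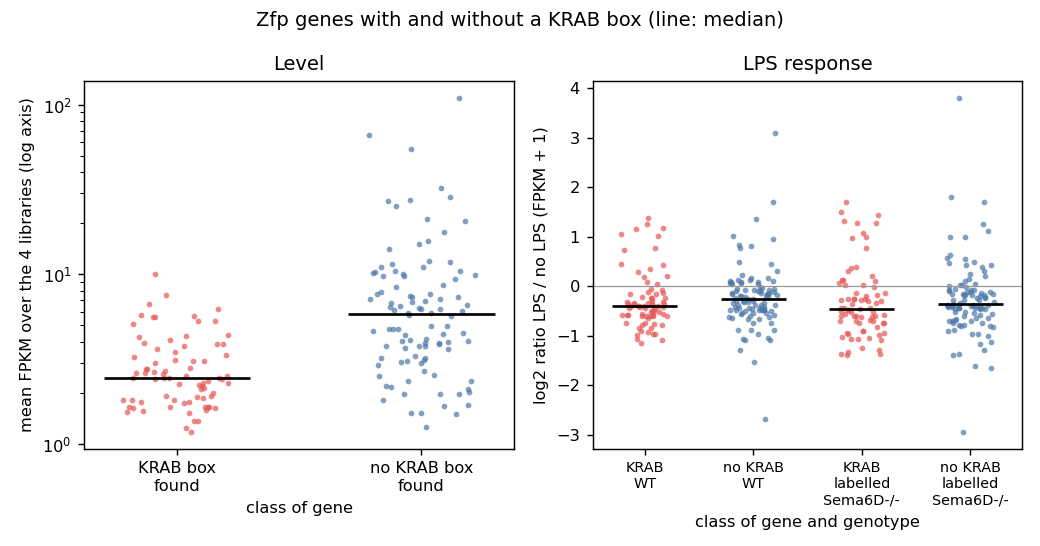
Left, mean FPKM over the 4 libraries on a log axis, 1 point per Zfp gene, for 77 genes with a KRAB box (red) and 102 without (blue). Right, log2 ratio of LPS to no LPS (FPKM + 1) for the same genes in WT and in the KO-labelled libraries. Black lines are medians, 2.46 and 5.81 FPKM on the left and -0.40, -0.26, -0.46 and -0.36 on the right.

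The silencing machinery on which KRAB proteins depend was measured beside them. In the list of 35 corepressor and silencing genes 31 were at 2 FPKM or more. With LPS 3 were 2-fold higher and 0 lower in WT (median -0.16), and 3 higher and 3 lower in the KO-labelled libraries (median -0.28). The 9.68% that 3 of 31 makes lies near the shares over all genes, 11.2% higher in WT, and 14.5% higher and 8.95% lower in the KO-labelled libraries. Trim28 measured 35.7, 29, 37.5 and 29.9 FPKM, a log2 ratio of -0.29 and -0.32. Setdb1 measured 12, 5.86, 10.9 and 4.88 FPKM (-0.92 and -1.01). The 3 higher genes were the same in both genotypes. They were Daxx, a histone chaperone partner (3.65 and 3.10), Morc3, a nuclear body ATPase (1.34 and 1.29), and the deacetylase Hdac1 (1.32 and 1.54). With Setdb1, the maintenance DNA methyltransferase Dnmt1 (-0.92 and -1.35) and the histone methyltransferase Ehmt1 (-0.72 and -1.15) were the 3 lower genes in the KO-labelled libraries.

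A list of members with a described function, KRAB genes such as Zfp110, Zfp445 and Zfp809 among them, was read apart. Of 27 measured, 2 were higher (7.41%) and 2 lower (7.41%) with LPS in WT, against 11.2% and 5.01% over all genes. In the other genotype 2 were higher and 0 lower, against 14.5% and 8.95%. The higher ones were Zfp281 and Zfp800 both times, and the lower ones Zfp703 and Zfp809. Zfp91, a ubiquitin ligase of noncanonical NF-kB signalling, measured 28 and 30.8 FPKM in WT, with 26.2 and 29.1 in the KO-labelled libraries. Zfp106, which binds RNA, measured 27.3, 29.9, 26.7 and 24.4 FPKM, and Zfp217, a transcriptional corepressor and oncogene, 16.5, 17, 18.1 and 18.9. Zfp385a, a p53 cofactor, measured 27.9 and 26.5 FPKM in WT against 32.8 and 21.7 in the other genotype, where it was lower with LPS (-0.57). Zfp622, a maturation factor of the large ribosomal subunit, measured 14.3, 14, 13.3 and 14.3 FPKM. With LPS the ratios of Zfp91, Zfp106, Zfp217 and Zfp622 lay between -0.12 and 0.15.

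Others were lower with LPS by less than 2-fold or near their unstimulated level. Zfp638, which takes part in silencing unintegrated retroviral DNA, measured 12.7, 7.67, 10.8 and 8.04 FPKM (-0.66 and -0.39). Zfp318, which controls the splicing of IgD in B cells, had ratios of -0.59 and -0.80, and the imprint factor Zfp445 -0.40 and -0.43. Zfp451, a SUMO ligase, had -0.37 and -0.33. Zfp410, an activator of the Chd4 gene, had -0.14 and 0.01, and Zfp326, a link between mRNA particles and RNA polymerase II, -0.38 and -0.06. Zfp335, needed for brain growth, measured 7.83, 7.27, 6.86 and 6.45 FPKM. Zfp110, a partner of the neurotrophin receptor p75, measured 8.70, 6.13, 6.56 and 5.26 FPKM, and its values are uncertain because Zfp369 is a near copy. Zfp260 went the other way, at 7.62 and 10.8 FPKM in WT against 9.23 and 13.3 in the KO-labelled libraries (0.45 and 0.48).

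Zfp143 binds a promoter element whose core reads ACTACA, 2 free bases and TCCC, and the level of its own mRNA was 11, 11.7, 8.01 and 10.9 FPKM. The element, searched on both strands of the 250 bases before the start, was found in 24 of the 149 members with a promoter in the RefSeq table (16.1%). It was found in 17.7% of all 322 Zfp genes with a promoter, in 4.96% of 7856 genes at 2 FPKM and in 1.92% of all genes. Among members it was in 17 of 69 with a KRAB box (24.6%) and 7 of 79 without (8.86%). The median number of CpG in the window was 9 with a KRAB box and 20 without, against 18 for genes at 2 FPKM. The bar plot of shares shows the order.

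**Figure D4:**
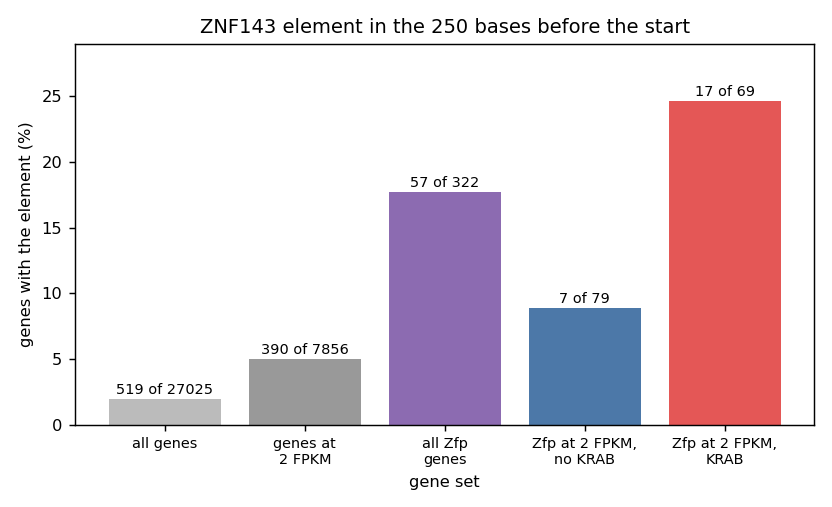
Share of genes (%, bars from 0) with the ZNF143 element in the 250 bases before the start, for all genes, genes at 2 FPKM or more, all Zfp genes, and Zfp genes at 2 FPKM or more without and with a KRAB box, with the counts above the bars. The share is 1.92% for all genes and 24.6% for KRAB members.

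The sites of 8 members are shown because they are what these promoters share whatever the direction of the LPS ratio. Each line gives the element in capitals with up to 12 bases on either side, 5′ to 3′ on the gene's strand, so that an element on the other strand starts with GGGA and ends with TGTAGT.
Zfp456: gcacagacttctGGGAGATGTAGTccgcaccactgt
Zfp429: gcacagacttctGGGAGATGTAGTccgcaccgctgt
Zfp455: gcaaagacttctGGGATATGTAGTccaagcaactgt
Zfp146: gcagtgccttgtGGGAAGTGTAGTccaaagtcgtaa
Zfp260: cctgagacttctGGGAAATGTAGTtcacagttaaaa
Zfp691: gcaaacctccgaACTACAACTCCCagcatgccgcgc
Zfp692: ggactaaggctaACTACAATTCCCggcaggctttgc
Zfp933: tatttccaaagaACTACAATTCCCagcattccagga
Positions on GRCm38.p6 are, in that order, chr13:67375809-67375844, chr13:67399815-67399850, chr13:67194438-67194473, chr7:30169848-30169883, chr7:30095035-30095070, chr4:119174351-119174386, chr11:58307009-58307044 and chr4:147848427-147848462. The distances from element to start were 57, 59, 44, 118, 17, 167, 36 and 20 bases. Of 25 elements 18 lay on the other strand and 7 on the gene's strand, and 20 lay within 100 bases of the start. With the free bases filled in, ACTACA was followed by TT in 10 elements, AT in 5, TC in 4 and CT in 3.

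Genes with the element did not share an LPS direction. Zfp456 (1.01 and 1.27), Zfp429 (1.17 and 0.98) and Zfp691 (0.96 and 1.11) were higher with LPS, and Zfp146 (-1.08 and -1.16) was lower. The median ratios of the 24 members with it were -0.39 and -0.44, and of the 125 without -0.31 and -0.37. A STAT element, TTCNNNGAA, was in 16.1% of members and 8.13% of all genes. Of the 24 members with a ZNF143 element 14 also held the STAT element, and in 5 of those the matches overlapped.

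Zfp genes that lie side by side were compared next. In RefSeq's order of protein-coding genes a neighbour was also a Zfp gene for 88 members, and 92 had no such neighbour. The medians with LPS were -0.41 and -0.48 in WT and the KO-labelled libraries for those with a neighbour, and -0.25 and -0.27 for those without. The largest run, from Zfp455 to Zfp273, held 20 Zfp genes, 11 of them members. There Zfp456 and Zfp429 were higher with LPS, while the run's median was -0.40 in WT and -0.28 in the other genotype. The run from Zfp84 to Zfp146 held 15 Zfp genes and 7 members, and in it Zfp382 had 1.27 and 1.33 and Zfp146 -1.08 and -1.16. Neighbours thus lay on both sides of 2-fold within 1 run. In the run from Zfp786 to Zfp746 Zfp777 was higher (1.06 and 1.44) and Zfp282 lower (-0.92 and -1.24). Zfp658 and Zfp719 also lie in 1 run, with 0.74 and 0.43 in WT and 1.08 and 0.77 in the other genotype. Of the genes named here, Zfp382, Zfp456 and Zfp719 reached 2 FPKM only with LPS, and Zfp282 only without. The minimum thus fixed their directions in both genotypes. Zfp658 reached it only in the KO-labelled library with LPS, which fixed its direction in that genotype.

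Near copies among these genes may share reads. Among 2926 pairs of KRAB members 10 pairs, made of 14 members, had 75% or more identical residues in their predicted proteins. Zfp455 and Zfp456 were 91.5% identical, Zfp110 and Zfp369 85%, and Zfp429 and Zfp456 79.0%. The promoters of Zfp429 and Zfp456 were 88.8% identical over the window. How the authors assigned reads that fit several genes is not given in the sources used here, so the separate values of these pairs are uncertain.

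Between the genotypes the Zfp genes differed little. Without LPS 0 of 180 members were 2-fold higher and 0 lower in the KO-labelled library, against 2.59% and 2.16% of all genes. Their median ratio to WT was 0.07, and over all genes 0.04. With LPS 1 was higher and 1 lower, against 3.02% and 3.09%, with a median of 0.02 that turned negative after centring (-0.04) and after rescaling to a common total (-0.15). Low genes of any kind passed less often. Among all 1764 genes with a highest level of 2 to 5 FPKM, 1.02% were higher and 1.87% lower without LPS. With LPS the shares of these genes were 2.10% and 2.72%. The libraries also differed by the sex-linked genes and the neutrophil marker sum given above, which cannot be told apart from genotype here.

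The higher member was Zfp945, a KRAB gene, at 0.704 and 1.93 FPKM in WT, with 1.36 and 5.69 in the KO-labelled libraries. It was above WT in both states (0.95 [0.60, 1.30] without and 1.56 [1.33, 1.79] with LPS). It reached the 2 FPKM minimum only in the library where it was higher, so it is not counted among the members at 2 FPKM in all libraries. With the added 1 its ratio with LPS was 1.19, and 0.96, under 2-fold, after rescaling to a common total. The lower member was Zfp52, also a KRAB gene, at 5.67 and 3.46 FPKM in WT against 4.31 and 1.06 in the other genotype. It was below WT in both states (-0.40 [-0.61, -0.18] and -1.71 [-2.20, -1.28]). The last library was the only one below the 2 FPKM minimum, which fixed the direction of Zfp52 with LPS. That library held an estimated 51 fragments.

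Zfp263 had the highest genotype ratio without LPS when 1 was added (0.67), and less expressed members such as Zfp945 and Zfp61 were above it without the added 1. It measured 16.7 and 30.1 FPKM in WT, with 27.1 and 55.3 in the KO-labelled libraries (0.70 [0.60, 0.80] and 0.88 [0.79, 0.96]). Zfp598, a ubiquitin ligase that acts on collided ribosomes, measured 9.41 and 7.93 FPKM in WT against 14.1 and 12.5 in the other genotype (0.59 [0.45, 0.72] and 0.66 [0.49, 0.83]). For Zfp598 both KO-labelled libraries lay above both WT libraries. Zfp324, one of the 8 genes higher with LPS, had genotype ratios of 0.35 and 0.87. On the lower side Zfp703 had -0.58 [-0.70, -0.45] without LPS and -0.19 [-0.43, 0.04] with LPS, and Zfp219 -0.45 and -0.52 with the added 1.

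Zfp943, Zfp944 and Zfp758 were lower in both states and lie in 2 runs. Zfp943 measured 4.19, 3.69, 2.73 and 1.66 FPKM, Zfp944 3.26, 1.28, 1.99 and 0.442, and Zfp758 3.42, 2.77, 2.49 and 1.15. The 3 members of the run from Zfp944 to Zfp946 had a median genotype ratio of -0.34 without and -0.66 with LPS, and Zfp946 alone was above 0 without LPS. The 3 members of the run from Zfp760 to Zfp994 had -0.05 and -0.44. These runs were chosen after their values were seen. Zfp944 reached 2 FPKM only in WT without LPS, so its lower level in the KO-labelled library without LPS was fixed by the minimum. Zfp943 and Zfp758 missed 2 FPKM only in the KO-labelled library with LPS, which fixed their direction with LPS. Zfp942 and Zfp944 were 80.2% identical in their predicted proteins, so reads may be shared there too.

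Over the 180 members the genotype ratios without and with LPS, which share no library, had an r of 0.59 and a rho of 0.53, and 124 had the same sign. Over all 9787 genes r and rho were 0.38 and 0.57, and 6854 had the same sign, a similar share. The scatter of genotype ratios shows a cloud around 0.

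**Figure D5:**
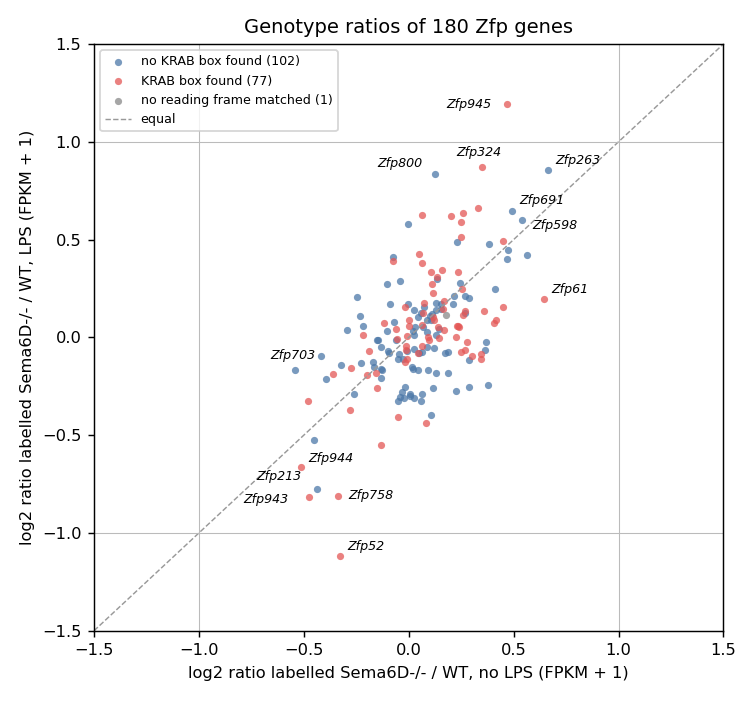
Genotype ratio, KO-labelled over WT, as log2 of (FPKM + 1), without LPS (horizontal) and with LPS (vertical), 1 point per Zfp gene, red with a KRAB box, blue without, grey with no reading frame matched. The dashed line marks equal ratios and the thin lines 2-fold. Zfp945 (1.19 with LPS) and Zfp52 (-1.12) are the points beyond 2-fold.

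The LPS responses of the genotypes were set against each other as a difference, the KO-labelled libraries minus WT. For 0 members this was 2-fold higher and for 0 lower, against 1.89% and 1.32% of all genes. The median was -0.03, which turned positive among the members at 5 FPKM (0.02) and those at 2 FPKM in all libraries (0.01). The largest positive differences were those of Zfp945 (0.72) and Zfp800 (0.71), and the most negative those of Zfp52 (-0.79), Zfp637 (-0.62) and Zfp511 (-0.54). Zfp945 reached 2 FPKM only in the KO-labelled library with LPS, and Zfp52 missed it only there. The minimum thus favoured the sign of both their differences. Zfp800 was already far higher with LPS in WT, and its level in the last library was above that in WT with LPS by 0.84 [0.80, 0.89]. Zfp637 measured 5.67, 3.20, 7.67 and 2.55 FPKM, and Zfp511 9.98, 10.8, 12.4 and 8.87.

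Other C2H2 families were read beside the Zfp genes. Of 45 Zbtb, Zkscan, Zscan and Zfhx genes at the same minimum, LPS in WT put 2 above 2-fold and 4 below, with a median of -0.29. Those above were Zbtb5 and Zbtb32, and those below Zbtb1, Zbtb4, Zbtb25 and Zbtb38. In the KO-labelled libraries 3 were higher and 7 lower, with a median of -0.21. These shares, 4.44% and 8.89% in WT and 6.67% and 15.6% in the other genotype, stand beside 11.2% and 5.01%, and 14.5% and 8.95%, over all genes. Zbtb5 measured 1.76 and 11.7 FPKM in WT, with 3.13 and 17 in the other genotype, and Zbtb4 18.6 and 4.88 in WT and 15.3 and 3.48. The Zfp genes had medians of -0.35 in WT and -0.39 in the KO-labelled libraries, closer to the other families in WT. The difference between the families was not tested.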

How the data were processed

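Messenger RNA was measured in 4 stranded libraries, 1 per group. The FPKM values were deposited by the authors per transcript. Per the submitters' processing notes TopHat2 2.0.13, Bowtie2 2.2.3, SAMtools 0.1.19, Cuffnorm 2.2.1 and mm9 were used, and the annotation, options and scaling are not given in the sources used here. Here, 34163 of 34487 transcripts were named by RefSeq and 187 by GENCODE, 137 stayed unmatched, and rows were summed per symbol in Python 3.11.15 with pandas 2.3.3, numpy 2.4.6, scipy 1.17.1 and matplotlib 3.10.9. The steps of low FPKM values gave 16.4 to 30.5 fragments per FPKM and kilobase. Of low values 72.5% to 74.6% came out whole within 0.1, against 20% by chance, so fragment numbers and the 95% exact binomial limits made from them are approximate. A member's poorest library held a median of 140.5 fragments, and 61 members had under 100 in some library. KRAB boxes and fingers were read from the longest reading frames of GENCODE transcripts. Genes were named by rule: among members at 5 FPKM the 10 highest and 10 lowest ratios of each comparison, the 12 highest mean levels, members past 2-fold in both genotypes, those beside the minimum and those with a known role. Other names were chosen after their values were seen. The members and lists were chosen with earlier results of these data known. Comparisons used a 2-fold size rule with no test. Checks ran on simulated data, and alternatives were another added constant, minimum, scaling and transcript number.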

Additional observations from a re-analysis of the deposited data

Results flagged for a closer look

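Zfp81, a KRAB member, was lower with LPS in WT (-0.21) and higher in the KO-labelled libraries (0.21). It measured 1.69 and 1.33 FPKM in WT and 2.09 and 2.58 FPKM in the KO-labelled libraries. Only in the latter did Zfp81 reach the 2 FPKM minimum, which fixed its higher level there than in WT. Among members whose ratios had opposite signs in the genotypes it was singled out by a minimum of 0.2 on both. Its ratios without the added 1 were -0.35 [-0.62, -0.07] and 0.31 [0.06, 0.55]. Smaller ratios of opposite sign, also with limits apart from 0, were those of Zfp106 (0.13 [0.08, 0.18] in WT and -0.13 [-0.19, -0.07] in the KO-labelled libraries) and Zfp710 (0.08 [0.04, 0.13] and -0.17 [-0.22, -0.12]). All these differences are far below 2-fold, each rests on 1 library per group, and the difference between the genotypes was not tested.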

How the results depend on the processing

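The median LPS ratio of the Zfp genes stayed below 0 in both genotypes under every alternative tried, from -0.20 to -0.76 in WT and from -0.17 to -0.95 in the KO-labelled libraries. Counts at 2-fold moved more, and no shares of all genes under the same alternatives stand beside them here. For LPS in WT the members lower numbered 27 with 0.1 FPKM added in place of 1, 37 when libraries were rescaled to 1 total, 17 with the median of well expressed genes as centre, 18 with their trimmed mean, 5 among genes with 1 transcript and 6 at 2 FPKM in all 4 libraries. Those higher numbered 3 after rescaling and 6 at 2 FPKM in all 4 libraries. For LPS in the KO-labelled libraries the members lower numbered 39 with 0.1 added, 8 at 5 FPKM, 11 at a mean of 2 FPKM, 83 after rescaling and 6 at 2 FPKM in all libraries, and those higher 4 after rescaling, 7 among genes with 1 transcript and 7 at 2 FPKM in all libraries. For genotype with LPS the members lower numbered 5 with 0.1 added and 0 at 2 FPKM in all libraries, and those higher 0 after rescaling, 0 among genes with 1 transcript and 0 at 2 FPKM in all libraries. For the difference of the LPS responses 1 member was lower with 0.1 added. Fewer genes enter under the stricter minimums and the transcript limit, and the cause of the other shifts was not tested. Of 345 values of 69 named members, 0 past 2-fold changed sign in any alternative, while rescaling took 16 below 2-fold and 26 past it. The alternative with 2 FPKM in all libraries was chosen after the data were seen. No paired analysis was possible because each group has 1 library.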
